A study of Mus musculus with 2 samples.

Results

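The 6 genes described here encode the constant regions of the antibody chains that a resting B cell makes: Igkc for the kappa light chain, Iglc1, Iglc2 and Iglc3 for the lambda light chain, and Ighm and Ighd for the IgM and IgD heavy chains. They were taken by symbol from the 28692 genes of the series, and all 6 were found. They were read in single B cells, and then in endothelial and T cells, which are only part of the cells outside the B cell rule. The study profiled CD31+ cells pulled with magnetic beads from the mesentery of C57BL/6 mice at postnatal day 8, with 1 droplet 3′ library per condition and 3 mice pooled in each. The Flcn iΔEC library came from mice with endothelial deletion of Flcn, a regulator of nutrient and TFE3 signalling. Deletion was made with Cdh5-BAC-CreERT2, in which the Cdh5 promoter drives a tamoxifen-inducible Cre in endothelium, on a Flcn flox/flox background. The labels call the other library only a control and give it no genotype, and both are listed with 40 µg of 4-hydroxytamoxifen, injected subcutaneously 4 times, first at P2 and last at P6.5, with P3.5 and P5 between. Since the driver is an endothelial one, the B cells were not the cells in which Cre was directed.

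A B cell normally joins the gene segments of its kappa locus first and opens the lambda loci when no working kappa chain results, so that a mature cell displays one light chain type, which is called isotypic exclusion. The lambda locus of the mouse carries several small constant regions, each with its own joining segment. IgM and IgD come from 1 primary transcript in the same cell, spliced to the Ighm or to the Ighd exons, and IgD rises as a B cell matures. Fcer2a encodes CD23, a low-affinity IgE receptor that mature follicular B cells carry and B-1 and immature cells lack.

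In GRCm38, the build the submitters' processing notes name as mm10, GENCODE M21 places Igkc on chromosome 6 from 70726435 to 70726966 on the plus strand, as 1 exon. Iglc1 lies on chromosome 16 from 19061618 to 19062071, Iglc3 beside it from 19065230 to 19065681, and Iglc2 farther along from 19198396 to 19200351, all on the minus strand. Ighm spans 113418558 to 113422730 and Ighd spans 113406604 to 113416324 on the minus strand of chromosome 12. The lambda genes are shown by the last 90 coding bases before the stop codon, because results for Iglc2 depend on telling it from Iglc3. Capitals mark bases that differ from Iglc2 at the same distance from the stop codon. Sequences are from the GENCODE M21 transcripts of GRCm38.
Iglc2, chr16:19198539-19198628, minus strand: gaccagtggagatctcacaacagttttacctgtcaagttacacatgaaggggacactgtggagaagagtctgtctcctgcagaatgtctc
Iglc3, chr16:19065368-19065457, minus strand: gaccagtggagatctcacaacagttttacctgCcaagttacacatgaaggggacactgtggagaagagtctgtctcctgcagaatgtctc
Iglc1, chr16:19061755-19061844, minus strand: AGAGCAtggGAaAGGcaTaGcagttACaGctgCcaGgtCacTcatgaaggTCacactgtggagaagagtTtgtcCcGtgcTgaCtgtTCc
In this stretch Iglc3 differs from Iglc2 at 1 base and Iglc1 at 29. Over the whole annotated transcript, a window of 91 bases of Iglc2, the length of a cDNA read in the study's methods, has a median of 3 mismatches to its best match in Iglc3 and at least 1, and none of its 368 windows is found unchanged there. The nearest window of Iglc1 is 19 mismatches away. Among these genes a read without errors could therefore be told apart, but 5.16% of Iglc2 windows are told from Iglc3 by a single base. Genes other than the light chain members were not compared, and neither was the read length of 98 bases that the labels give.

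A B cell was a barcode with at least 3 UMIs (unique molecular identifiers, 1 per captured RNA molecule) of Cd79a and none of Cd3d, Cd3e or Cd3g. This gave 2345 of 6814 control cells and 1447 of 4459 Flcn iΔEC cells, and left out 356 and 100 cells that held both Cd79a at that level and a Cd3 UMI. The label held against markers the rule did not use: all 12 B cell identity genes (Pax5, Ebf1, Ms4a1 and others) were detected, at a summed level of 5152 CPM (UMIs of the genes per 1000000 UMIs of the cell class) in the control B cells against 475.0 in endothelial and 342.6 in T cells, and 4205 against 277.4 and 273.8 in Flcn iΔEC. The libraries held 64639756 and 60805779 UMIs, with a median of 6292 and 8192 per B cell, and 6 cell barcodes occurred in both. They differ in sex as well as in condition: the control counted 9 UMIs of Xist and 15535 of 4 Y-linked genes, and Flcn iΔEC counted 63462 and 17, so the effect of one cannot be told apart from that of the other. Flcn itself, summed over all cells, was at 15.5 CPM (1003 UMIs) in the control library and 12.9 (784 UMIs) in Flcn iΔEC, and whether the counted 3′ end lies in the deleted part is not given in the sources used here. With 1 library per condition no difference between them has a replicate check and no test was run. All intervals are at 95% and cover counting error only, not the spread between mice.

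Igkc was the member with the highest level in B cells, followed by Ighm, with Ighd lowest. Igkc stood at 6341 CPM in the control B cells (119241 UMIs, exact Poisson interval 6306 to 6378) and 4397 in Flcn iΔEC (4363 to 4431). Per cell it ranged from 0 to 394 UMIs with a median of 43 in the control, and from 0 to 292 with a median of 37 in Flcn iΔEC. Ighm stood at 2807 CPM (2783 to 2831) and 2221 (2197 to 2245), with a median of 18 UMIs per cell in each library. Among the lambda genes, Iglc2 led in the control at 1331 CPM (1314 to 1347), ahead of Iglc1 at 1169 (1154 to 1185) and Iglc3 at 807 (794 to 820). In Flcn iΔEC the order was another: Iglc1 was at 1023 CPM (1007 to 1039), Iglc2 at 695 (682 to 709) and Iglc3 at 572 (560 to 584). Ighd had 403 CPM (394 to 412) and 299 (290 to 308), and a median of 2 UMIs per cell in both. In each library no intervals of neighbouring members overlapped. The counts are of molecules captured at the 3′ end, so they are not divided by gene length.

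**Figure D1:**
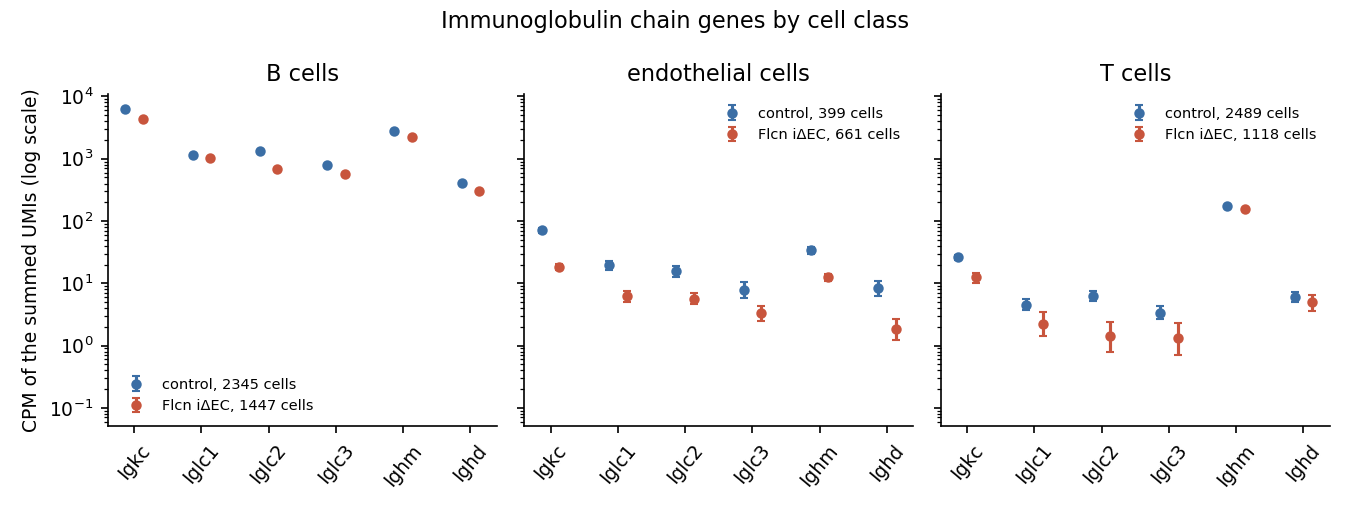
Level of each member as CPM of the summed UMIs (log axis) in B, endothelial and T cells, with control in blue and Flcn iΔEC in red and bars giving exact 95% Poisson intervals. All 6 members are highest in B cells, Igkc reaching 6341 CPM, and Ighm alone stays above 100 CPM in T cells.

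Nearly every B cell held Ighm, at 99.9% of control and 98.6% of Flcn iΔEC cells with at least 1 UMI. Igkc was seen in 96.5% and 94.0%. After each cell was thinned to 2000 UMIs, which left out 33 and 2 shallower cells, the shares were 98.1% and 95.5% for Ighm and 95.5% and 91.6% for Igkc. The same thinned measure gave 53.5% and 44.6% for Ighd, whose unthinned shares were 83.0% and 82.5%. Iglc2 had the widest gap between libraries on this scale, at 70.1% of thinned control cells (Clopper-Pearson interval 68.2 to 72.0) and 45.5% of Flcn iΔEC cells (42.9 to 48.1), from unthinned shares of 79.0% and 58.9%. T cells, which should lack Igkc and have a median depth of 7481 and 7875 UMIs, had it in 4.55% and 2.60% of thinned cells, from 18.5% and 10.3% unthinned. Together the 6 genes made up a median of 1.31% of a control B cell's UMIs and 0.945% of a Flcn iΔEC B cell's, with a maximum of 5.83%, and no cell had the dominating share that a plasma cell gives.

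Light chain use per cell was graded in most cells rather than all or none. Among B cells with at least 10 light chain UMIs (2324 control and 1415 Flcn iΔEC), a kappa cell was defined by an Igkc share of Igkc and the Iglc genes of at least 0.9, and a lambda cell by a share of at most 0.1. By these limits 246 control cells were kappa cells (10.6%, interval 9.36 to 11.9), 129 were lambda cells (5.55%, 4.65 to 6.56) and 1949 were mixed (83.9%, 82.3 to 85.3). In Flcn iΔEC 175 were kappa (12.4%, 10.7 to 14.2), 94 lambda (6.64%, 5.40 to 8.07) and 1146 mixed (81.0%, 78.8 to 83.0). The 3 shares had overlapping intervals between the libraries.

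**Figure D2:**
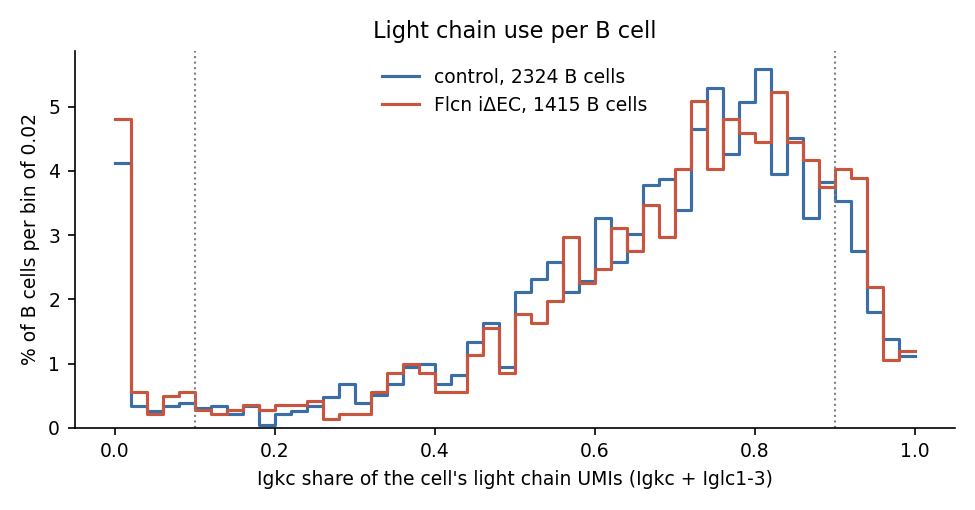
Percentage of B cells (y axis, per bin of 0.02) by the Igkc share of the cell's light chain UMIs (x axis), with control in blue, Flcn iΔEC in red and dotted lines at shares of 0.1 and 0.9. A narrow peak at 0 to 0.02 holds 4.13% of control and 4.81% of Flcn iΔEC cells, and the remaining cells form 1 broad hump with medians over all cells of 0.725 and 0.732.

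The distribution was sharp at its lower end. The lowest bin, with an Igkc share below 0.02, held 96 control and 68 Flcn iΔEC cells, and few cells lay near the lambda limit (22 and 19 with a share within 0.03 of it). The kappa limit cut through the hump, with 243 and 168 cells within 0.03 of it. The counts of kappa and mixed cells therefore depend strongly on where that limit is placed. The median share was 0.725 (quartiles 0.563 and 0.824) in the control and 0.732 (0.574 and 0.839) in Flcn iΔEC. Over all B cells summed, Igkc made up 65.7% of light chain UMIs in the control and 65.8% in Flcn iΔEC.

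By the limits used, mixed cells must hold both chain types and lambda cells little Igkc, so the counts given here only describe the amounts. The 129 control lambda cells held a median of 65 lambda UMIs and 0 Igkc UMIs, and in 80 of them Igkc was at 0. In Flcn iΔEC the 94 lambda cells had medians of 56 and 0, and 64 were at 0 for Igkc. Kappa cells kept lambda RNA: the median was 4 lambda UMIs in the control and 3 in Flcn iΔEC beside 55 and 51 Igkc UMIs, and 20 of 246 and 11 of 175 had none. Mixed cells held medians of 44 Igkc and 19 lambda UMIs in the control and 38 and 16 in Flcn iΔEC. At least 3 UMIs of each type were found in 2133 of the 2324 control cells (91.8%) and 1265 of 1415 Flcn iΔEC cells (89.4%). T cells held a mean of 0.210 and 0.108 Igkc UMIs per cell. Their means for Iglc1, Iglc2 and Iglc3 were 0.0366, 0.0506 and 0.0273 in the control, and 0.0197, 0.0125 and 0.0116 in Flcn iΔEC. The T cell rule leaves out cells with Cd79a, so these means may lie below those of all T cells. Doublet calls were few among mixed cells, at 6 of 1949 and 5 of 1146. Whether these calls can find a doublet made only of B cells, such as a kappa cell with a lambda cell, was not tested. The depth of mixed cells (medians of 6517 and 8359 UMIs) exceeded that of kappa cells (5295 and 6960). The part of depth in the mixed share was not tested.

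The lambda RNA of kappa-led cells was shared among the 3 Iglc genes. In cells with an Igkc share of at least 0.5 and at least 10 lambda UMIs, 1107 of 1388 control cells (79.8%) and 431 of 711 Flcn iΔEC cells (60.6%) held all 3 genes, and the leading gene made up a median of 0.581 and 0.579 of the lambda UMIs. One gene supplied at least 0.9 of them in 30 (2.16%) and 26 cells (3.66%). In lambda cells the leading gene was stronger, with a median share of 0.763 and 0.740 and at least 0.9 in 23 of 129 (17.8%) and 20 of 94 (21.3%). That gene was Iglc1 in 18 and 16 of these cells. Of all lambda UMIs in lambda cells Iglc1 supplied 58.6% in the control and 48.5% in Flcn iΔEC, against 27.0% and 41.4% in the kappa-led cells.

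Iglc2 followed a pattern of its own: among kappa-led B cells it was either absent or abundant. Each lambda gene was read in kappa-led cells that held at least 5 UMIs of the other lambda genes. Iglc2 was at 0 in 307 of 1438 control cells (21.3%, interval 19.3 to 23.6) and in 393 of 860 Flcn iΔEC cells (45.7%, 42.3 to 49.1), with 1 or 2 UMIs in 96 and 76 cells only and 3 or more in 1035 and 391. Where it was present at 3 or more its median was 11 UMIs in the control and 9 in Flcn iΔEC. Iglc3 showed no such split, with 0 UMIs in 41 of 1453 (2.82%) and 36 of 781 cells (4.61%). Iglc1 was at 0 in 204 of 1561 (13.1%) and 92 of 787 cells (11.7%), but with more cells at 1 or 2 (429 and 179) and no dip between absent and present. This comparison was added after the values had been seen.

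**Figure D3:**
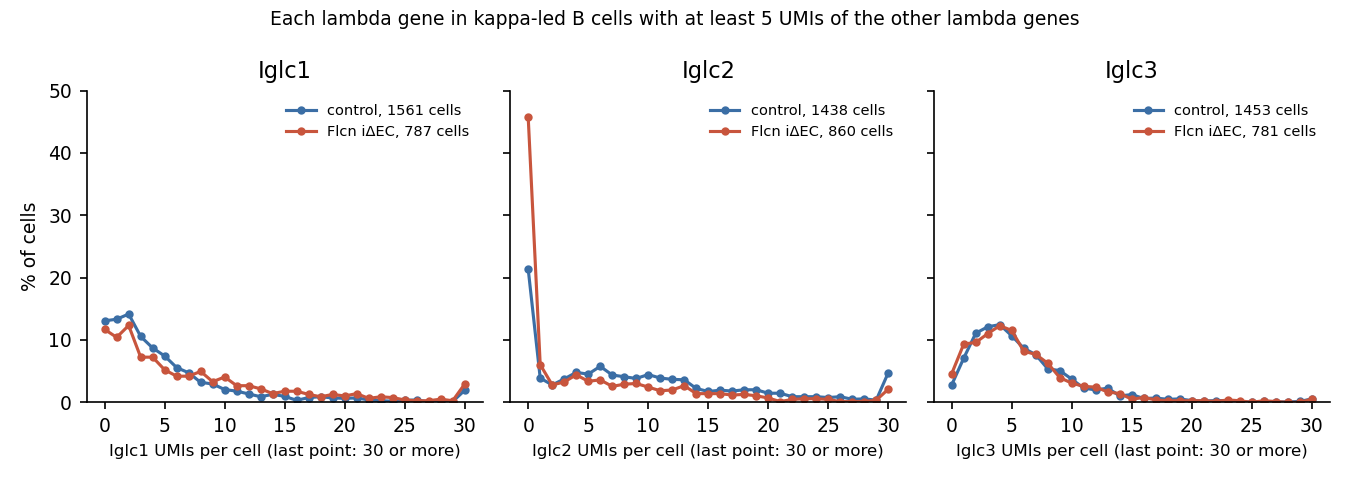
Percentage of kappa-led B cells (y axis) by UMIs per cell of Iglc1, Iglc2 and Iglc3 (x axis, the last point pooling 30 or more), among cells with at least 5 UMIs of the other lambda genes, with control in blue and Flcn iΔEC in red. Iglc2 has a spike at 0 of 21.3% and 45.7%, a dip to 2.78% and 2.79% at 2 UMIs and a second rise, while Iglc3 has 1 hump.

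Cells without Iglc2 had levels of the other light chain genes close to those of cells with it. Iglc3, the lambda gene closest to Iglc2 in sequence, had a median of 5 UMIs in control cells without Iglc2 and 6 in those with at least 3. It had 5 in both kinds of Flcn iΔEC cell. The cells had been chosen for at least 5 UMIs of Iglc1 and Iglc3 together, and the assignment of reads between Iglc2 and Iglc3 was not tested. Iglc1 had medians of 4 and 5 in the control and 6 and 7 in Flcn iΔEC, and Igkc had 50 and 56, and 48 and 52. Depth was slightly lower without Iglc2, at medians of 6177 against 6996 UMIs and 8434 against 9363. Fcer2a was detected in 56.4% of control cells without Iglc2 and 66.5% with it, and in 41.0% and 41.7% in Flcn iΔEC. Of 8188 genes tested, 5 were past 2-fold higher (0.0611%) and 6 lower (0.0733%) in both libraries. Those with at least 100 CPM were Iglc2 itself, which chose the cells, Mgp and Eln, matrix genes that were higher without Iglc2, and Glycam1, a gene of high endothelial venules that was lower. Single cells held most of these matrix and venule UMIs: 1 cell held 95.8% and 87.0% of the Mgp UMIs, and 1 cell 76.9% and 99.6% of the Glycam1 UMIs, on the higher side. None of 20 B cell receptor signalling genes, 12 identity genes or 8 follicular genes was past 2-fold the same way in both libraries. Each library pools 3 mice, and the labels do not say which mouse a cell came from.

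V segments of the lambda locus, which are spliced upstream and seldom reached from the 3′ end, were read in few cells. Iglv1 was found in 22 of 129 control lambda cells (17.1%, interval 11.0 to 24.7) against 49 of 1914 kappa-led cells (2.56%, 1.90 to 3.37), and in 21 of 94 (22.3%) against 13 of 1165 (1.12%) in Flcn iΔEC. The lambda cells with Iglv1 held 1925 Iglc1, 419 Iglc2 and 557 Iglc3 UMIs in the control, and 1097, 746 and 293 in Flcn iΔEC. Iglv3 was not detectably higher in lambda cells: it was found in 4 of 129 (3.10%) against 66 of 1914 kappa-led cells (3.45%, 2.68 to 4.37), and in 3 of 94 (3.19%) against 35 of 1165 (3.00%). Iglv2 was found in 7 B cells of each library.

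Outside the light chains, lambda cells and kappa cells were much alike. Of 4585 genes tested, 9 (0.196%) were past 2-fold higher in lambda cells in both libraries and 13 (0.284%) lower. The chain genes chose the cells, so Igkc and the Iglc genes among these calls are a description. Of the others with at least 100 CPM, Ube2c, a ubiquitin-conjugating enzyme of mitosis, was higher in lambda cells (log2 ratios 1.12 and 1.70) and so was Dbi (1.07 and 1.20). Ube2c was found in only 4 control and 9 Flcn iΔEC lambda cells, and 1 cell held 72.2% and 40.9% of its UMIs there. For Dbi, 1 lambda cell held 10.8% and 34.5%. Glycam1, Clu, Madcam1 and Ctla2a, genes of endothelial cells, were higher in kappa cells, and in the control 1 cell held from 90.3% to 99.4% of their UMIs. No gene of the receptor signalling list (18 tested), the identity list (12) or the follicular list (7) was past 2-fold in either direction, and 1 of 7 cell cycle genes, Top2a, was higher in lambda cells.

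Ighd stood higher against Ighm in Fcer2a-positive B cells than in Fcer2a-negative ones, in both libraries and to a like degree. At least 1 Fcer2a UMI was present in 1521 of 2345 control B cells (64.9%) and 658 of 1447 Flcn iΔEC B cells (45.5%). In the control, Ighd was 16.6% of Ighd and Ighm UMIs in Fcer2a-positive cells (5629 Ighd UMIs, interval 16.3 to 17.0) and 7.32% in Fcer2a-negative cells (1942 UMIs, 7.01 to 7.64). In Flcn iΔEC the shares were 18.7% (18.0 to 19.3) and 7.94% (7.59 to 8.29). The ratio of Ighd to Ighm was thus 2.53 times higher with Fcer2a in the control (log-normal interval 2.40 to 2.67) and 2.66 times in Flcn iΔEC (2.50 to 2.84), intervals that overlap. Depth ran the other way, with medians of 6089 UMIs in positive and 7194 in negative control cells and 7547 and 8911 in Flcn iΔEC.

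**Figure D4:**
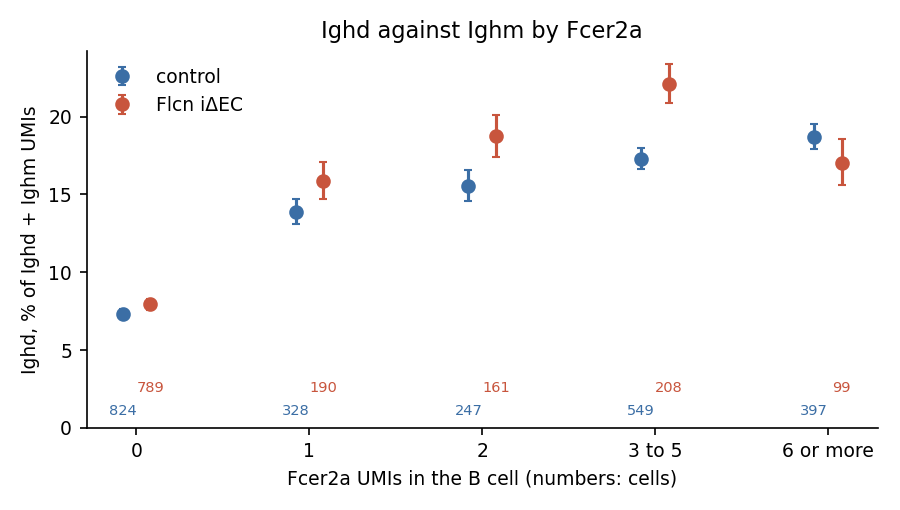
Ighd as a percentage of Ighd and Ighm UMIs (y axis) in B cells grouped by Fcer2a UMIs (x axis), with exact 95% binomial intervals, control in blue and Flcn iΔEC in red and the number of cells printed below. The share steps from 7.32% and 7.94% at 0 UMIs to 13.9% and 15.9% at 1 UMI.

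Both heavy chains contributed to this difference. Ighd was at 500.3 CPM in Fcer2a-positive and 257 in Fcer2a-negative control cells, a ratio of 1.95 (1.85 to 2.05), and at 423 and 214 CPM in Flcn iΔEC, a ratio of 1.98 (1.86 to 2.10). Ighm went the other way, at 2505 and 3258 CPM in the control (ratio 0.769, interval 0.756 to 0.782) and 1843 and 2481 in Flcn iΔEC (0.743, 0.726 to 0.760). Ighd thus lay just under the 2-fold limit, which 13 of 9477 genes tested (0.137%) exceeded in both libraries and 52 (0.549%) passed on the lower side. Ighd was missing from 10.8% of Fcer2a-positive control cells and 28.4% of negative ones, and from 8.05% and 25.3% in Flcn iΔEC. Ighm was missing from 2 of 824 Fcer2a-negative control cells and 19 of 789 Flcn iΔEC cells.

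The step was mainly between 0 and 1 Fcer2a UMI. In the control the Ighd share was 7.32% at 0, 13.9% at 1, 15.6% at 2, 17.3% at 3 to 5 and 18.7% at 6 or more UMIs. In Flcn iΔEC it was 7.94%, 15.9%, 18.7%, 22.1% and 17.0%. The last value rests on 99 cells. Cd9 and Bhlhe41, the only genes of the B-1 list read in this way, split the cells in the opposite sense. B cells with at least 1 UMI of Cd9, a tetraspanin high on B-1 and marginal zone cells, had 6.92% Ighd against 14.8% without it in the control. In Flcn iΔEC the shares were 7.42% against 13.9%. Cells with Cd9 were deeper, at medians of 10718 against 5942 UMIs in the control and 12724 against 7540 in Flcn iΔEC. For Bhlhe41, a transcription factor of B-1 cells, the Ighd shares with and without it were 8.85% and 15.3%, and 9.97% and 14.9%. For Cd93, found on immature B cells, they lay closer together, at 13.4% with and 12.4% without in the control, and 13.9% and 11.5% in Flcn iΔEC. For Vpreb3, another gene of immature B cells, they were 12.7% and 12.4% in the control and 11.6% and 12.2% in Flcn iΔEC. For Cr2 they were 13% and 12.4%, and 12.8% and 11.7%, and for Top2a, a gene of dividing cells, 10.1% and 13.1%, and 9.54% and 12.7%.

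The light chains differed less by Fcer2a, apart from Iglc1. Igkc had 6243 CPM in Fcer2a-positive and 6489 in negative control cells (ratio 0.962, interval 0.951 to 0.973) and 4183 and 4543 in Flcn iΔEC (0.921, 0.906 to 0.935). Iglc1 was at 927 and 1529 CPM in the control (0.606, 0.590 to 0.623) and 762 and 1202 in Flcn iΔEC (0.634, 0.612 to 0.656). Iglc2 had ratios of 0.859 and 0.910 and Iglc3 had a ratio of 0.924 in the control and 572 CPM in both kinds of cell in Flcn iΔEC. The share of lambda cells was 5.03% in Fcer2a-positive and 6.53% in negative control cells, and 5.50% and 7.63% in Flcn iΔEC. No gene of the receptor list (20 tested) or the identity list (12) was past 2-fold in both libraries between these cells. Of 8 follicular genes 2 were higher with Fcer2a, Fcer2a itself, which set the groups, and Icosl, the ICOS ligand (log2 ratios 1.20 and 1.06). Of 6 B-1 genes tested 2 were lower with Fcer2a, Zbtb32 (-2.60 and -2.71) and Cd9 (-1.16 and -1.17), as was 1 of 6 immature genes, Myb, and 1 of 8 cell cycle genes, Mcm5.

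All 6 members were lower in CPM in the Flcn iΔEC B cells than in the control B cells, and none passed 2-fold with the B cell rule used here. With at least 1 in place of 3 Cd79a UMIs, Iglc2 passed it, at a log2 ratio of -1.19 (interval -1.23 to -1.16). With the rule as used, the ratio was 0.693 for Igkc (interval 0.687 to 0.700), 0.875 for Iglc1 (0.857 to 0.893), 0.522 for Iglc2 (0.510 to 0.534), 0.709 for Iglc3 (0.690 to 0.728), 0.791 for Ighm (0.780 to 0.802) and 0.742 for Ighd (0.715 to 0.771). Of 11300 genes tested, 818 (7.24%) were past 2-fold higher in Flcn iΔEC and 248 (2.19%) lower, and the median log2 ratio over all of them was -0.02. The members lay at log2 ratios of -0.53, -0.19, -0.94, -0.50, -0.34 and -0.43 in the order given. In UMIs per cell, where depth is not scaled out, the control and Flcn iΔEC means were 50.8 and 45.0 for Igkc and 22.5 and 22.7 for Ighm. They were 9.37 and 10.5 for Iglc1, 10.7 and 7.12 for Iglc2, 6.47 and 5.86 for Iglc3 and 3.23 and 3.06 for Ighd. Iglc1 and Ighm were thus higher per cell in Flcn iΔEC, whose B cells were deeper.

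**Figure D5:**
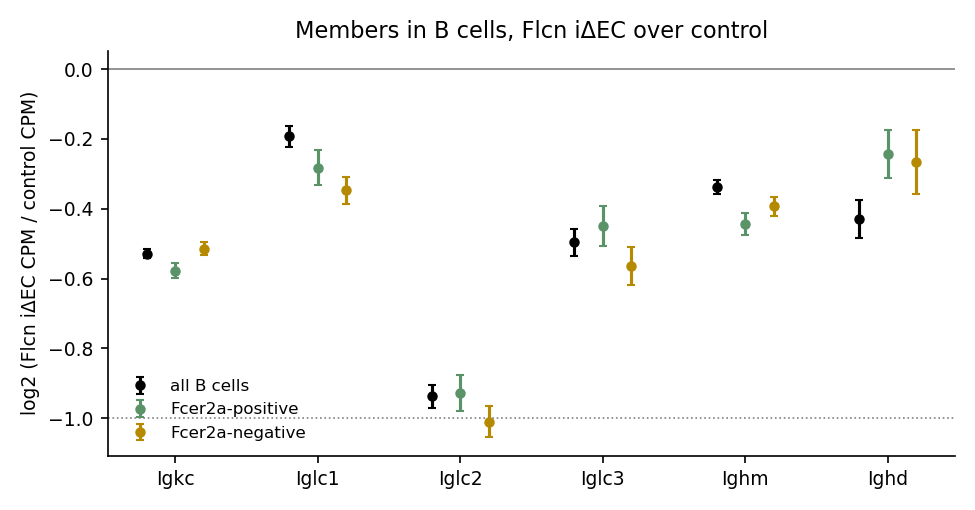
Log2 ratio of CPM, Flcn iΔEC over control (y axis), for each member in all, Fcer2a-positive and Fcer2a-negative B cells, with 95% counting intervals, a line at 0 and a dotted line at 2-fold lower. All values lie below 0, from -0.19 for Iglc1 in all B cells to -1.01 for Iglc2 in Fcer2a-negative cells.

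The make-up of the B cells differed between the libraries, so the ratios were also taken within Fcer2a status. Fcer2a-negative cells were 35.1% of control and 54.5% of Flcn iΔEC B cells. Among Fcer2a-positive cells the log2 ratios of Flcn iΔEC over control were -0.58 for Igkc, -0.28 for Iglc1, -0.93 for Iglc2, -0.45 for Iglc3, -0.44 for Ighm and -0.24 for Ighd. Among Fcer2a-negative cells they were -0.51, -0.35, -1.01, -0.56, -0.39 and -0.27. Iglc2 thus had the lowest ratio in each, and in the Fcer2a-negative cells its ratio of 0.497 had an interval (0.481 to 0.512) that spans 2-fold lower.

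Other genes of these B cells are given beside the members, and some were lower, some higher and some little changed. Of 20 receptor signalling genes 1 was past 2-fold, Cr2, the complement receptor CD21, at 35.6 CPM in the control and 16.6 in Flcn iΔEC, and Cd79b, the signalling partner of the surface antibody, was at 1158 and 1159. The 20 genes had a median log2 ratio of -0.18, and the 12 identity genes, none of them past 2-fold, of -0.49. Of 8 follicular genes 2 were lower, Fcer2a (333 and 138 CPM) and Cr2. Of 9 immature genes 3 were higher in Flcn iΔEC, Vpreb1 and Igll1, which form the surrogate light chain of precursor B cells (2.13 and 7.02, 1.65 and 4.72 CPM), and Sox4 (41.4 and 110.1 CPM). The surrogate chain genes lay in few cells: in Flcn iΔEC Igll1 was in 7 B cells, 3 of which held 48 of its 70 UMIs, and Vpreb1 in 13, 5 of which held 80 of its 104. Of 8 B-1 genes Cd9 was higher (58.2 and 155 CPM) and Ctla4 lower, and 3 of 8 cell cycle genes were higher, among them Mki67 (17.8 and 47.2 CPM). Plasma cell genes showed none of 7 past 2-fold.

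RNA of other cell types was also unequal. The 8 endothelial marker genes summed to 359 CPM in the control B cells and 768 in Flcn iΔEC, with 5 of 8 past 2-fold higher, and the stromal markers to 6.49 and 139, with 4 of 4 tested past 2-fold higher. The endothelial rule was also met by 29 control and 49 Flcn iΔEC B cells. With at least 100 CPM, the widest ratios higher in Flcn iΔEC were those of Xist, Olfm1, Fgl2, Hspa1a and Hspa1b, and the widest lower were Eif2s3y, Ddx3y, Spink4, Hba-a1 and Hbb-bs. Heat shock genes were among these, Hspa1a at 24.8 CPM in the control and 1173 in Flcn iΔEC. For Spink4, Hba-a1 and Hbb-bs 1 control cell held 99.2%, 93.3% and 89.5% of the UMIs. Their part in the lower level of the members was not tested.

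Endothelial cells, gated on at least 4 of 8 endothelial markers and on no other class rule, held few antibody UMIs. Igkc was at 71.3 CPM in 399 control endothelial cells (462 UMIs, interval 65.0 to 78.1) and at 18.4 in 661 Flcn iΔEC cells (292 UMIs, 16.4 to 20.7). That is 0.0112 and 0.00419 of the level in the B cells of the same library. Most of it lay in single cells: 4 control cells with at least 10 Igkc UMIs held 323 of the 462 (69.9%), and 2 Flcn iΔEC cells held 153 of the 292 (52.4%), while 281 and 546 cells had none. Of these cells 3 of 4 and 2 of 2 also held Cd79a. In endothelial cells without a Cd79a UMI, Igkc was at 23.6 CPM (130 UMIs in 359 cells) and 8.71 CPM (113 UMIs in 564 cells).

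Relative to Igkc, the counts of Ighm, Ighd and the summed lambda genes in endothelial cells were above their B cell proportions in both libraries. Single cells held much of these counts, and no interval was computed for the ratios. The highest control cell for each gene held 43 of 218 Ighm, 24 of 54 Ighd and 79 of 126 Iglc1 UMIs. In Flcn iΔEC the highest cells held 83 of 197 Ighm, 65 of 99 Iglc1 and 52 of 90 Iglc2 UMIs. Ighm per Igkc was 0.472 in control endothelial and 0.443 in control B cells, and 0.675 and 0.505 in Flcn iΔEC. Lambda per Igkc was 0.602 and 0.521, and 0.829 and 0.521. Ighd per Igkc was higher in endothelial cells of both libraries, at 0.117 against 0.0635 and 0.0993 against 0.0680. Iglc1 was at 19.4 and 6.24 CPM in endothelial cells, Iglc2 at 15.6 and 5.68, Iglc3 at 7.87 and 3.34, Ighm at 33.7 and 12.4, and Ighd at 8.34 and 1.83. All 6 were lower in CPM in the Flcn iΔEC endothelial cells, which were deeper, with ratios from 0.219 for Ighd to 0.425 for Iglc3. In UMIs per cell all 6 were lower too, but by less, for example 1.16 and 0.442 for Igkc and 0.128 and 0.0802 for Iglc3. After thinning to 2000 UMIs the share of endothelial cells with Igkc was 6.92% (interval 4.61 to 9.91) in the control and 2.45% (1.41 to 3.94) in Flcn iΔEC, with 9 and 7 cells left out, from 29.6% and 17.4% at the deeper medians of 12811 and 21199 UMIs.

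T cells, gated on at least 3 Cd3 UMIs and no Cd79a, gave another mixture. Their Igkc was at 26.0 and 12.4 CPM, against 23.6 and 8.71 in endothelial cells without Cd79a. Their lambda per Igkc was 0.546 and 0.405, against 0.521 in the B cells of each library. Ighm, however, was at 172 CPM in the control (3463 UMIs, interval 167 to 178) and 155 in Flcn iΔEC (1512 UMIs, 147 to 163). Ighm per Igkc was 6.63 and 12.5 in T cells, far from the 0.443 and 0.505 of B cells. Ighm was seen in 27.9% (26.2 to 29.7) and 24.9% (22.4 to 27.6) of thinned T cells, from 64.8% and 61.5% unthinned, against 4.36% and 1.22% of thinned endothelial cells. No T cell held more than 20 Ighm UMIs, and the median was 1. The source of the Ighm UMIs in T cells was not tested. Cells that met no class rule held more Igkc, at 1804 CPM in 1275 control cells and 687 CPM in 874 Flcn iΔEC cells. In myeloid cells Igkc was at 127 CPM (51 cells) and 3.22 CPM (42 cells). The B cells held 83.5% and 90.9% of the UMIs of the 6 members. Whether the cells of no class include B cells that the rule missed was not tested.

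Over 12 points (6 cell classes of at least 20 cells in each of the libraries), the genes whose levels, as log2 of CPM with 1 added, were among the 3 most like those of Igkc included Cyb561a3 (r = 0.99) and Fcmr (0.98). For the summed lambda genes they were Igkc (0.98), Fcmr (0.98) and Gm13383 (0.97). For Ighm they were Pifo (0.98), Irf4 (0.98) and Haao (0.98), and for Ighd they included Igkc (0.97) and Cd22 (0.97). These are descriptions over 14935 genes, in points that share 2 libraries. Within single B cells no pair of members was closely tied: Spearman's rho of their shares of a cell's UMIs ran from -0.18, for Ighm and Ighd, to 0.38, for Iglc1 and Ighm, over both libraries.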

How the data were processed

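The deposited counts are UMIs per gene and cell, which the authors made with Cell Ranger 3.0 against mm10, dropping low-quality reads and PCR duplicates; each library was used as deposited, with no further cell filter (totals per cell from 500 UMIs up). The members, gene lists, rules and comparisons were chosen with earlier results of these data known. UMIs were summed over the cells of a class and scaled to CPM over all genes. Cell classes came from marker rules: B and T cells as stated; endothelial, at least 4 of 8 markers and 10 summed UMIs; myeloid, neutrophil and erythroid, at least 3 summed UMIs; fibroblast, at least 10. Classes other than B excluded cells meeting another rule. Intervals were exact Poisson, Clopper-Pearson, exact conditional for ratios of sums, and log-normal for the ratio of 2 ratios. Genes with at least 50 summed UMIs were compared with 1 count added, past 2-fold, and in contrasts within libraries in both libraries. No test was possible with 1 library per condition. The cells of a library are not replicates. Doublets were called with Scrublet (scanpy 1.11.5), 145 and 49 cells, and kept. The named genes were the members, list genes, the 5 widest ratios each way with at least 100 CPM, the 3 most similar profiles and the 5 commonest control V segments; 1 named gene is not reported here. Python 3.11.15, scipy 1.17.1 and numpy 2.4.6 were used, and the gene contrast was checked on simulated counts.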

Additional observations from a re-analysis of the deposited data

How the results depend on the processing

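Depth limits the reading of light chain use: below 10 light chain UMIs a share is not given, and V segments are too sparse to tie a chain to its rearrangement. With 1 library per condition, pooled mice and a difference in sex, no value between libraries has a biological error. No value changed sign under any alternative run, and for the members these all used shares of cell UMI totals. In mean UMIs per B cell, which was not among them, Iglc1 and Ighm were higher in Flcn iΔEC than in the control. The kappa share of B cells was 31.8% in the control and 34.4% in Flcn iΔEC with limits of 0.8 and 0.2, and 3.23% and 3.39% with 0.95 and 0.05, and the mixed share was 61.4% and 57.4%, and 92.2% and 91.1%. The log2 difference in Ighd over Ighm by Fcer2a, 1.34 and 1.41, was 1.13 and 1.31 with at least 2 Fcer2a UMIs and 1.14 and 1.12 as a mean over cells. It was 1.03 and 1.14 where Fcer2a status was read after thinning to 2000 UMIs, with Ighd and Ighm not thinned. Igkc in endothelial cells was 23.6 and 8.71 CPM with Cd79a at 0, 22.2 and 8.20 with Ptprc at 0, 240 and 55.1 where other class rules were allowed, 64.6 and 10.9 without called doublets and 58.7 and 16.2 as a mean over cells. Without Iglc2 were 18.6% of Fcer2a-positive and 26.5% of negative kappa-led control cells. The log2 ratio of the 6 members summed, -0.48, was -0.46 with totals without mitochondrial, ribosomal and hemoglobin genes and -0.46 as a mean over cells, -0.74 with Cd79a at least 1, -0.42 with at least 10, -0.38 for cells meeting no other class rule, -0.53 in Fcer2a-positive and -0.51 in negative cells, and -0.46 with up to 2 Cd3 UMIs. With genes of at least 20 or 200 UMIs, those past 2-fold numbered 1640 or 413 for Flcn iΔEC over control (1066 as reported), 134 or 23 by Fcer2a (65) and 43 or 8 for lambda over kappa (22). The causes were not tested. The other 63 of 103 such values stayed within the counting interval or 1.5 times the count, and the alternatives on Cd3 UMIs, Fcer2a status and Iglc2 were chosen after seeing the data.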

Other observations

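Class-switched heavy chains were rare in these B cells. Ighg3, an IgG subclass, had 77 UMIs in 48 of 2345 control B cells and 51 UMIs in 37 of 1447 Flcn iΔEC B cells, at 4.10 CPM (exact Poisson interval 3.23 to 5.12) and 3.44 (2.56 to 4.53). Ighg2b had 35 UMIs in 10 cells and 85 UMIs in 21 cells, at 1.86 CPM (1.30 to 2.59) and 5.74 (4.58 to 7.09), and of the latter 46 UMIs lay in 3 cells. Igha had 39 and 13 UMIs, never more than 2 in a control B cell. Ighg1 had 0 and 1, and Ighg2c and Ighe had none in either library, which allows up to 3 UMIs of each per library. Jchain, which joins IgM and IgA into polymers in secreting cells, reached 5 UMIs in 2 control and 3 Flcn iΔEC B cells.

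V segments were read in a minority of B cells. Igkv segments had 549 UMIs in 459 control cells (19.6%) and 432 in 342 Flcn iΔEC cells (23.6%), spread over 79 and 73 of 160 segments. Ighv segments had 554 UMIs in 468 cells and 389 in 313 cells, over 91 and 84 of 185 segments. The Igkv segments that led in most control cells were Igkv1-117 (29 cells, and 23 in Flcn iΔEC), Igkv1-135 (28 and 25), Igkv10-96 (27 and 16), Igkv12-46 (27 and 15) and Igkv12-44 (27 and 18). The Ighv segments were Ighv3-6 (27 and 11), Ighv5-16 (18 and 9), Ighv7-3 (18 and 5), Ighv2-2 (17 and 11) and Ighv6-6 (15 and 7). No Igkv or Ighv segment led in more than 29 cells, and the 5 segments listed for neonatal or B-1 antibodies had from 1 to 8 UMIs per library. Segments of one family share much sequence, so the counts of single segments are uncertain.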
